A study of Arabidopsis thaliana with 30 samples.

Results

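In Arabidopsis seedlings kept under low oxygen for 9 h, a set of transcripts fell and came back up within 1 h of air. These transcripts were chosen by 2 differences in total RNA. A probe set was taken where its mean of 3 arrays at 9 h of hypoxia lay at least 1 below 9 h of air on the log2 scale (2-fold), and where its mean after recovery lay at least 1 above 9 h of hypoxia. The rule found 273 of 22746 probe sets, 1.2% of all. Of these members, 110 are paired with exactly 1 gene in the probe table used here, 5 with several genes and 158 with none. The 110 are 110 different genes, and the other members are counted but not named.

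All seedlings were 7-day-old Arabidopsis thaliana of the Col-0 background carrying 35S:His6FLAG-RPL18B, a tagged ribosomal protein driven by a viral promoter that is active in most cells, and no line without the transgene was among the samples. The groups were 2 h of hypoxia, 2 h of air, 9 h of hypoxia followed by 1 h of recovery in air, 9 h of hypoxia, and 9 h of air. Each gave total RNA and polysomal RNA pulled down through the tagged ribosomes, on 3 arrays from 3 biological replicate experiments, 30 arrays in all. Treatments began as the daily light period closed, and seedlings recovering from hypoxia were set against 9 h of air, so they were 1 h older than that control.

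Oxygen shortage stops respiration in plant mitochondria and leaves the cell with the little ATP that glycolysis and fermentation supply. Costly processes such as protein synthesis, growth and the building of cell walls are then turned down, and many mRNAs leave the polysomes, the ribosome-loaded mRNAs. When air returns, respiration restarts, and polysomes form again.

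Changes below are log2 differences, and a member is said to have risen or fallen only where its limma p, adjusted over all 22746 probe sets, was under 0.05. Both differences that chose the members came from total RNA of 9 h of air, 9 h of hypoxia and recovery, so every value from those arrays is a description without a test. Tests were made on total RNA at 2 h and on polysomal RNA, which came from other arrays. These arrays carry the same replicate numbers, so they may stem from the same experiments, which the labels do not state. Total arrays had means of 5.75 to 5.81 over all probe sets. Polysomal array means were 4.54 at 2 h of hypoxia against 5.36 in 2 h of air, and 5.20 in recovery and 4.34 at 9 h of hypoxia against 5.36 in 9 h of air. Each polysomal array was therefore set relative to its own mean, which makes a polysomal value a level relative to the average mRNA of that pool. In whole seedlings, fewer cells of a type and less RNA per cell cannot be told apart. As a check of whole seedlings, total RNA of 9 h air had mean signals of 13.09, 12.98 and 6.82 for LHCB4.1, LHCB4.2 and LHCB4.3, antenna proteins of green tissue, and of 5.74 and 6.86 for the root hair expansins EXPA7 and EXPA18, beside a median of 5.35 over all probe sets.

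In total RNA, the members lay between 4.18 and 1.00 below air at 9 h of hypoxia, with a median of -1.57, and 1 h of recovery lifted them by a median of 1.31 over 9 h of hypoxia. Recovery left them at a median of -0.14 relative to 9 h of air. Of the 273, 162 ended within 0.5 of air in either direction, 24 at least 1 below it and 8 at least 1 above it. Over all 22746 probe sets, 16105 ended within 0.5 of air, a larger share than among the members. Of all probe sets, 1350 ended at least 1 below air and 1302 at least 1 above it. All 273 were below air at 9 h and above 9 h of hypoxia in recovery in each of the 3 replicates, and both differences were past 1 in 234, 222 and 211 members in replicates 1, 2 and 3. The same arrays chose the members, so this agreement was largely set by the rule. When the rule was applied to 2 replicates at a time, it picked 269 to 286 probe sets, of which 237 to 246 were members. In the replicate left out, these had median differences of -1.49 to -1.62 at 9 h and of 1.21 to 1.4 in recovery.

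Of all 22746 probe sets, 1936 fell by at least 1 at 9 h in total RNA; 14.1% of these were members, and 1663 fell without the rebound. Of 648 that rose by at least 1 in recovery, 42.1% were members, and 375 rose without the earlier fall. The members just inside the threshold for the fall were AT4G25780, AT5G56980 and IQD24, at -1.001, -1.004 and -1.011, and just outside it were AT4G02480, AT1G02270 and AT1G04430, at -0.975, -0.97 and -0.955. For the rise, AT1G64380, AT5G21105 and AT5G08350 lay just inside at 1.006, 1.008 and 1.012, and UBP23, AT3G60320 and AT2G04400 just outside at 0.995, 0.993 and 0.992.

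The largest named rebound was that of AT2G47440. Its total RNA signal was 10, 9.64 and 9.82 in recovery, 6.37, 6.51 and 6.29 at 9 h of hypoxia, and 8.97, 8.83 and 8.91 in 9 h of air. Every recovery array was thus above every air array, and every hypoxia array below both. These levels amount to 10.8-fold more in recovery than at 9 h of hypoxia, and to 5.73-fold less at 9 h of hypoxia than in air. Its polysomal level followed, at 3.62, 3.52 and 3.4 in recovery, 0.84, 0.91 and 0.36 at 9 h of hypoxia and 3.06, 2.77 and 3.21 in 9 h of air. The polysomal rise in recovery was 2.81 ± 0.171 (standard error, SE, 3 arrays per group, limma adjusted p = 3.38e-12), and the polysomal fall at 9 h was -2.31 ± 0.171 (limma adjusted p = 2.36e-11).

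AT4G35320 followed with a total RNA rise of 2.85, AT2G44670, a small zinc finger protein of the FCS-like family, with 2.70, AT1G61100 with 2.54 and AT2G44500 with 2.47. Next came AT1G23030, a U-box type ubiquitin ligase, with 2.39, the wall receptor kinase THE1 with 2.33, the xyloglucan synthase CSLC04 with 2.31, the glycosyltransferase GT72B1 with 2.24 and AT5G44060 with 2.21. The deepest falls at 9 h were those of AT3G54400, of the aspartic protease family, at -4.18, the leucine-rich repeat receptor-like kinase AT3G28040 at -3.05, AT5G12050 at -2.92 and AT3G60860, an exchange factor for the ARF GTPases of vesicle traffic, at -2.86. AT3G01720, a galactosyltransferase of hydroxyproline-rich wall proteins, lay at -2.55, AT2G47440 and AT5G45510 at -2.52, the DNA glycosylase family member AT5G44680 at -2.38, AT1G05150 at -2.36 and AT5G46230 at -2.34. AT2G47440 was the one gene in both sets of 10.

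**Figure D1:**
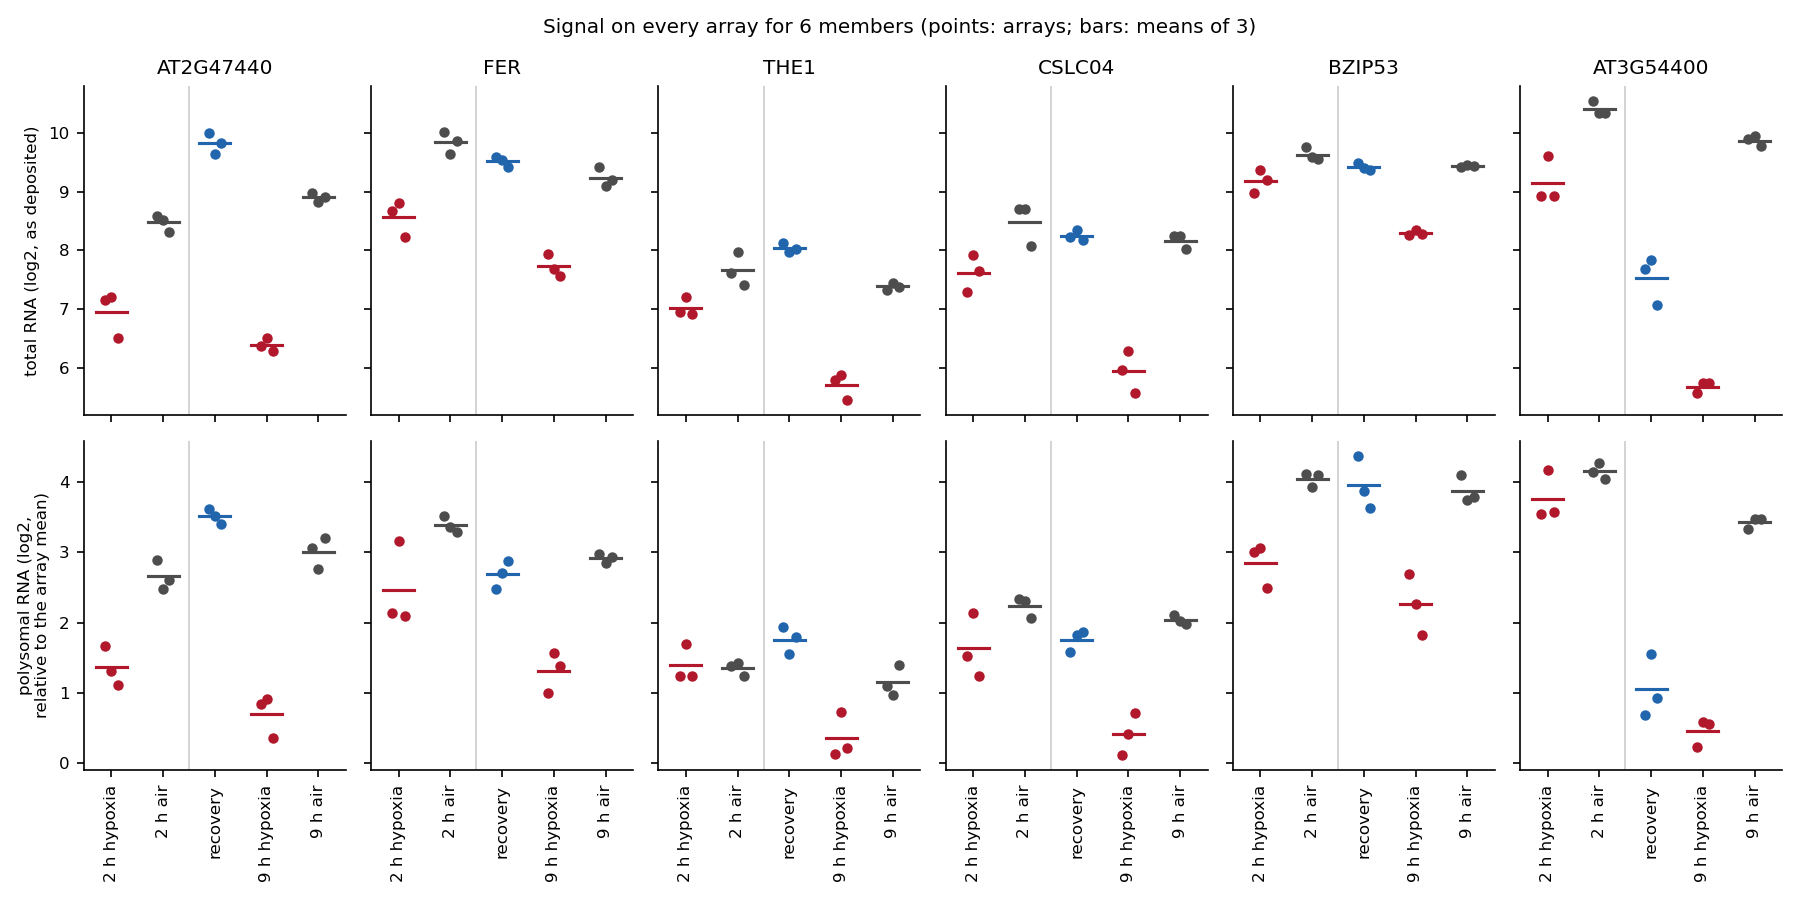
Signals of 6 members on every array, as deposited log2 values in total RNA (upper row) and as log2 values relative to the array mean in polysomal RNA (lower row), with points for arrays and bars for means of 3. AT2G47440 ends above 9 h of air in recovery, FER, THE1, CSLC04 and BZIP53 end near or above it in total RNA, and AT3G54400 stays 2.34 below it there.

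Already at 2 h of hypoxia, most members were down in total RNA, in arrays that the choice of members did not use. Of the 273, 225 were lower than in 2 h of air, 0 were higher and 48 did not pass the test; over all probe sets 12.5% were called lower and 8.2% higher. The members' median change was -0.88, against -0.01 over all probe sets. Of the 1663 probe sets that fell at 9 h and did not rebound, 941 were lower at 2 h, with a median of -0.51. The share was thus 82.4% among members and 56.6% among these. The 2 sets also differed in the depth of the 9 h fall in total RNA, with medians of -1.57 and -1.36. Array by array, members had median changes of -1.05, -0.6 and -1.07 in replicates 1, 2 and 3, and 156, 41 and 151 of them lay at least 1 below air. The arrays of replicate 2 thus showed the smaller change at 2 h. Leaving out replicates 1, 2 and 3 in turn gave 155 to 230 members lower.

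AT3G28040 was among those lowest at 2 h. Its total RNA signal was 6.76, 7.89 and 6.23 at 2 h of hypoxia against 9.25, 8.74 and 9.25 in 2 h of air, and the groups did not overlap. The change was -2.12 ± 0.278 (SE, limma adjusted p = 3.07e-06). AT3G01720 fell by 2.06, AT3G06070 by 2.00, AT3G60860 by 1.92, AT1G23030 by 1.88 and AT3G24080, a KRR1 family protein of ribosome assembly, by 1.68. No named member rose at 2 h in total RNA, and 6 members of the 273 had a change above 0, up to 0.25.

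Total RNA of the members at 9 h of hypoxia lay a median of 0.75 under that at 2 h of hypoxia (-0.75), as a description. Of the 273, 256 were lower at the later time. The rule had required low values there, which largely set this direction. Over all probe sets, 9914 of 22746 were lower, with a median of 0.04. Of the non-rebounding ones, 1612 of 1663 were lower, with a median of -0.87. Over the same hours in air the members' median difference was -0.06. AT3G54400 shows the late part of the fall, with 8.92, 9.6 and 8.92 at 2 h of hypoxia and 5.57, 5.74 and 5.75 at 9 h of hypoxia.

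Some members were not transcripts that hypoxia brought below their starting level. The 3 members that differed most between the air controls have no gene in the table used here, and were 6.1, 5.08 and 5.02 higher in 9 h of air than in 2 h of air. The first of them had 9.42, 9.19 and 9.05 in recovery, 7.85, 8.09 and 7.68 at 9 h of hypoxia and 10.01, 9.62 and 9.75 in 9 h of air, while at 2 h it had 3.76, 3.85 and 3.84 under hypoxia against 3.69, 3.92 and 3.46 in air. Hypoxia thus left it far above its 2 h level and short of the level in air. In all, 11 members were at least 1 higher in 9 h than in 2 h of air, among them AT5G15950, an S-adenosylmethionine decarboxylase of polyamine synthesis, at 1.27, and 1 member, AT1G64330, was at least 1 lower, at -1.01. In polysomal RNA the same comparison of air controls was tested, and 17 members rose and 13 fell, against 4% and 4.26% of all probe sets. Without replicate 3 these 30 calls became 17. Among named members AT5G15950 was 1.35 higher in 9 h than in 2 h of air on polysomes, AT1G17360 was 0.68 higher, AT2G25250 lay at -0.96 and AT3G07470 at -0.71. AT5G12050 was 0.8 higher, or 0.72 without replicate 2 (limma adjusted p = 0.181).

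On polysomes at 9 h of hypoxia, 243 of the 273 members fell against 9 h of air, 1 rose and 29 did not pass the test, where 25.3% of all probe sets were called lower and 22.6% higher. The members' median polysomal change was -1.19, against 0.05 over all probe sets. The non-rebounding probe sets were also mostly lower on polysomes, 1336 of 1663, with a median of -0.99. AT5G12050 had polysomal levels of -0.28, -0.8 and -0.18 at 9 h of hypoxia against 3.21, 2.9 and 2.7 in 9 h of air. Its groups did not overlap, and it fell by 3.36 ± 0.208 (SE, limma adjusted p = 9.56e-13). AT3G54400 fell by 2.98, AT5G65860 by 2.73, AT2G14460 by 2.63, AT2G44670 by 2.57 and AT5G02480 by 2.54. Across the 273 members, total and polysomal changes at 9 h had a Pearson r of 0.56 (0.79 over all probe sets), with the replicate numbers shared. The rule kept only falls of at least 1 in total RNA, which narrows the members' range. The 2 values of r can therefore not be compared.

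In recovery, 221 members rose on polysomes against 9 h of hypoxia, 0 fell and 52 did not pass the test, where 18.9% of all probe sets were called higher and 18.1% lower. This comparison shares its 9 h hypoxia arrays with the one before, so the members' values in both are given side by side and not as separate support. The median rise of the members was 0.95, against -0.04 over all probe sets and 0.01 over the non-rebounding ones, of which 392 rose and 341 fell. AT5G46230, of a plant protein family of unknown function, had polysomal levels of 2.24, 1.88 and 1.79 in recovery against -1.39, -0.48 and -1.42 at 9 h of hypoxia, with no overlap, a rise of 3.07 ± 0.209 (limma adjusted p = 2.16e-11). AT2G44670 rose by 3.00, AT2G47440 by 2.81, AT4G35320 by 2.75, AT1G04000 by 2.64 and AT5G12050 by 2.52. Both calls, lower on polysomes at 9 h and higher in recovery, were met by 205 members (75.1%). Of these, 168 were also lower in total RNA at 2 h. Joint counts were made for the members only, so they have no share over all probe sets to be read against.

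**Figure D2:**
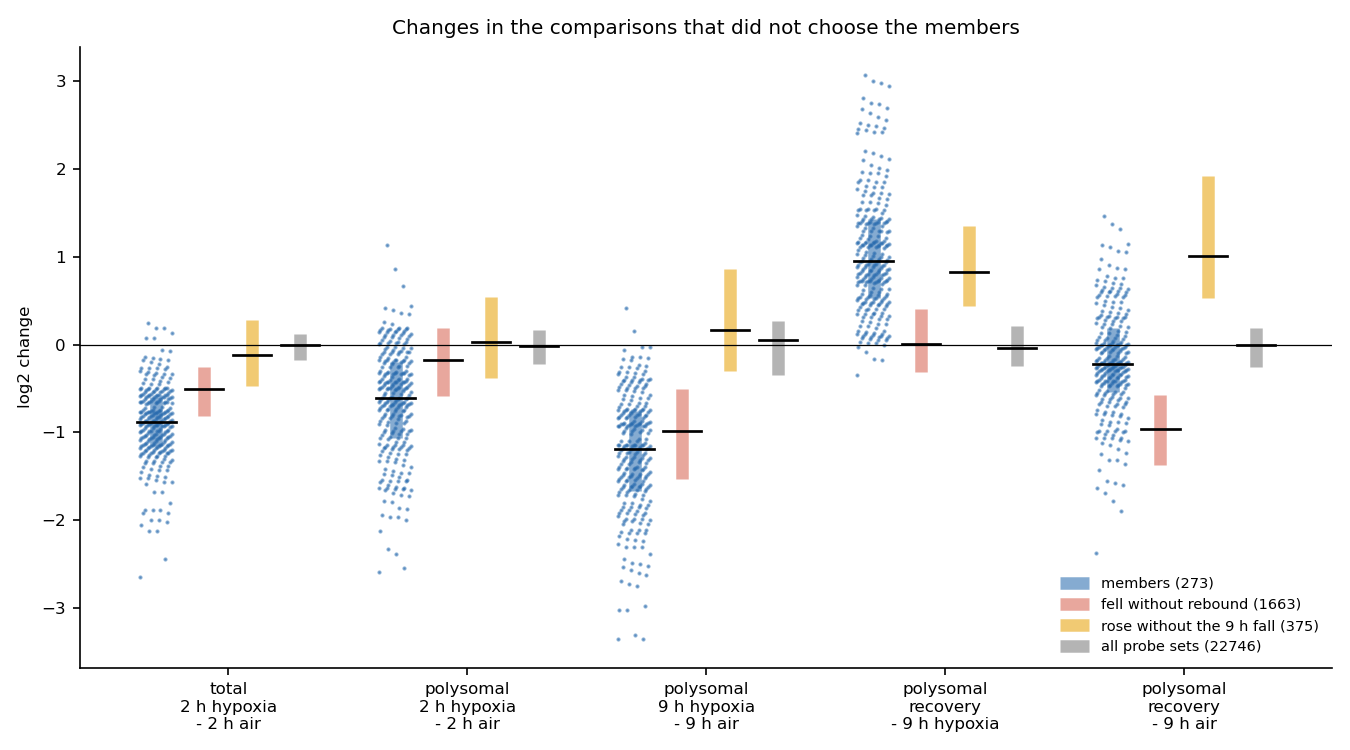
Log2 changes in the comparisons that did not choose the members, with bars from the 25th to the 75th percentile, black lines at medians and small points for the 273 members. The members' median is -0.88 in total RNA at 2 h, -1.19 on polysomes at 9 h of hypoxia, 0.95 on polysomes in recovery and -0.22 on polysomes in recovery against 9 h of air.

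The other 68 members split into those that fell on polysomes without a called rebound, 38, those that rebounded without a called fall, 16, and those with neither, 14. Among the 38 was AT3G28040, at 0.83, 1.03 and 0.96 in recovery, 0.41, 0.4 and 0.41 at 9 h of hypoxia and 2.66, 2.61 and 2.89 in 9 h of air. Its recovery arrays lay above those of 9 h of hypoxia without overlap, but the difference of 0.53 ± 0.274 did not pass (limma adjusted p = 0.139). The Golgi mannosidase GMII, which trims N-glycans, also belonged there, with a polysomal change of 0.12 in recovery (limma adjusted p = 0.6) beside a total RNA rise of 1.02. Among the 16 were GT72B1, PSY1R, the receptor kinase for the peptide PSY1, and AT2G44500, with polysomal rises of 1.01, 0.71 and 1.33 in recovery and changes of -0.23, -0.37 and -0.27 at 9 h that did not pass. Among the 14 were STIPL1, a spliceosome component, TOPII, the DNA topoisomerase II, and AT1G62020, an alpha subunit of the COPI vesicle coat. STIPL1 had polysomal levels of 0.17, -0.13 and 0.17 in recovery, 0.07, -0.07 and 0.03 at 9 h of hypoxia and 0.17, -0.09 and 0.03 in 9 h of air, so all 3 groups overlapped while its total RNA lay 1.04 below air at 9 h.

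**Figure D3:**
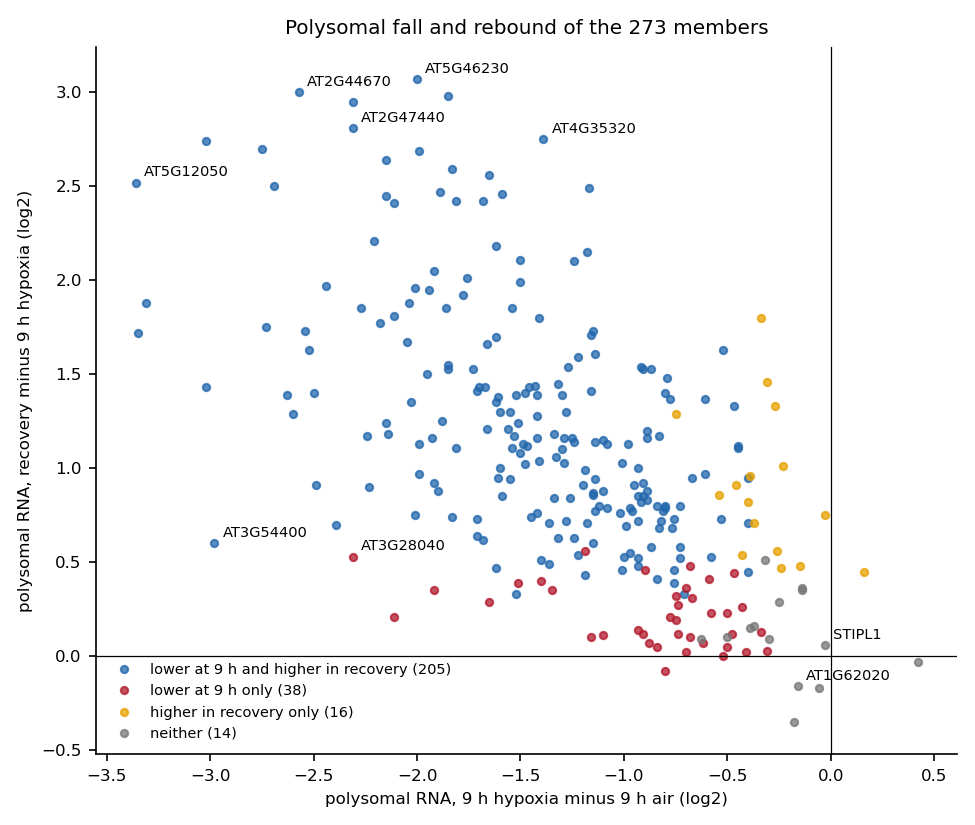
Polysomal change at 9 h of hypoxia against 9 h of air (horizontal, log2) and in recovery against 9 h of hypoxia (vertical, log2) for each of the 273 members, coloured by limma call. Of these, 205 were lower and then higher, 38 lower only, 16 higher only and 14 neither; both axes use the same 9 h hypoxia arrays, with opposite sign.

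After 1 h of recovery, most members did not pass the test on polysomes against 9 h of air, but the share not passing was larger over all probe sets. Not passing does not show that a level equalled that of air. Of the 273, 151 did not pass, 88 were lower (32.2%) and 34 higher (12.5%), and the median was -0.22. Over all 22746 probe sets, 14331 did not pass, 19.9% were lower and 17.1% higher. With the polysomal values as deposited the counts were 130 lower and 27 higher, and without replicate 3 the 122 calls became 80. Of the non-rebounding probe sets 1403 of 1663 were lower than air in recovery and 0 higher, and of those that rose without the earlier fall 307 of 375 were higher. AT3G54400 remained lowest, with 0.68, 1.55 and 0.93 in recovery against 3.34, 3.48 and 3.48 in 9 h of air, a difference of -2.38 ± 0.205 (limma adjusted p = 6.73e-10). Its polysomal rise over 9 h of hypoxia was 0.6 (limma adjusted p = 0.0211), and without the second recovery array it was 0.36 (limma adjusted p = 0.204). AT3G28040 lay at -1.78, AT5G21105 at -1.25, AT2G14460 at -1.24, AT3G60860 at -1.1, AT4G11160 at -0.98, the pectinesterase AT3G49220 at -0.88, AT5G12050 at -0.84 and AT3G01720 at -0.68. Without replicate 3, AT3G60860 had -0.94 (limma adjusted p = 0.0564) and AT3G01720 -0.65 (limma adjusted p = 0.0555).

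AT4G35320 stood furthest above air among the named members on polysomes. Its levels were 3.3, 3.28 and 3.32 in recovery against 2.14, 1.71 and 1.95 in 9 h of air, with no overlap, a difference of 1.37 ± 0.183 (limma adjusted p = 9.8e-07). AT2G25250 was 1.32 higher, AT5G46230 1.07, AT2G44500 1.06, GT72B1 0.78 and AT5G56980 0.72 higher. THE1 was 0.6 higher and AT2G47440 0.5 higher. Without replicate 2 AT2G47440 had 0.37 (limma adjusted p = 0.224), and THE1 had 0.49 without replicate 1 (limma adjusted p = 0.118). In total RNA, as a description, AT2G44500, AT4G35320, AT2G25250, AT4G02540 and GT72B1 lay 1.34, 1.27, 1.09, 1.01 and 1.00 above 9 h of air, and AT3G54400, AT3G28040, AT3G01720, AT5G45510 and GMII lay at -2.34, -1.84, -1.42, -1.21 and -1.18.

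**Figure D4:**
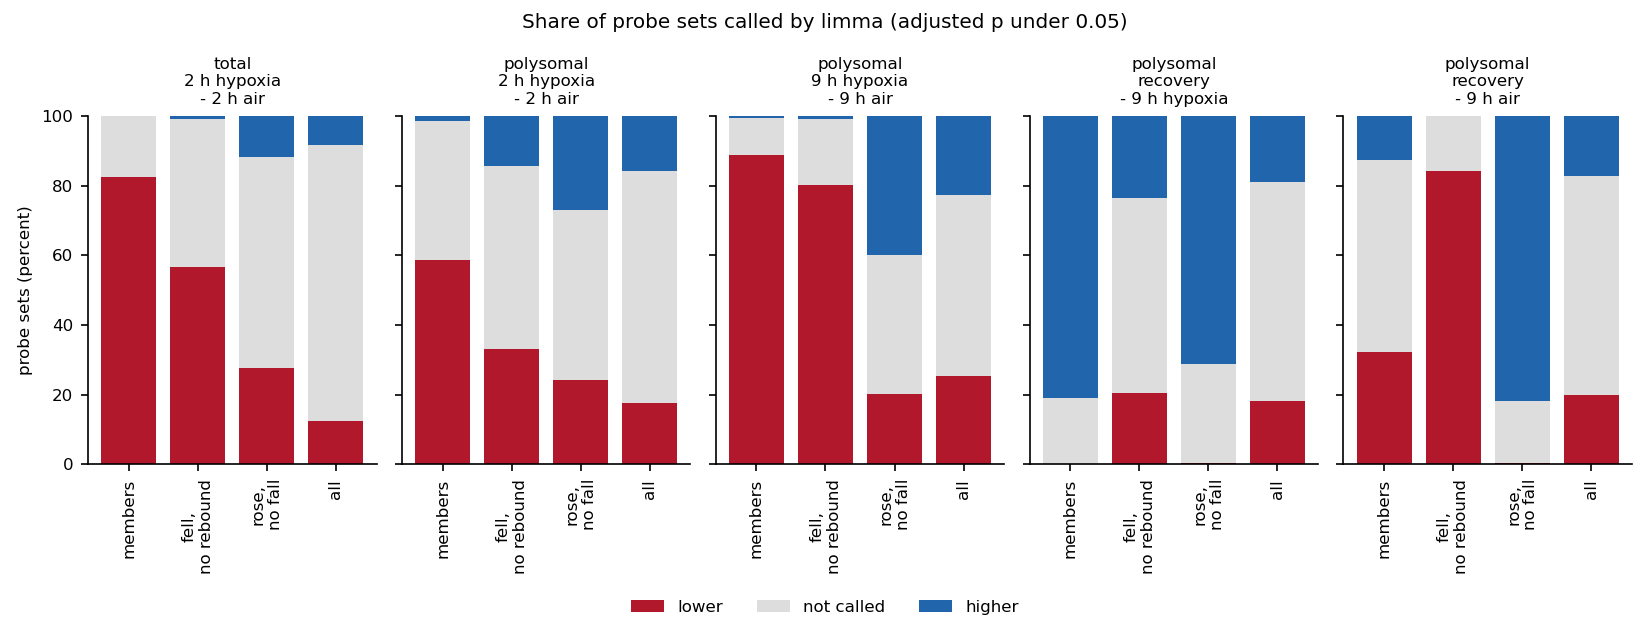
Share of probe sets called lower (red), not called (grey) or called higher (blue) by limma among the members, the probe sets that fell without rebound, those that rose without the fall, and all probe sets. In recovery against 9 h of air, 88 members were lower and 34 higher, while 1403 of 1663 non-rebounding probe sets were lower.

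At 2 h of hypoxia, fewer members fell on polysomes than in total RNA. In polysomal RNA 160 were lower than in 2 h of air, 4 were higher and 109 did not pass, where 17.6% of all probe sets were called lower and 15.7% higher, and the median was -0.61. Both pools were called lower for 142 members, total RNA alone for 83 and polysomal RNA alone for 18. These joint counts, too, were made for the members only and have no share over all probe sets to be read against. The median polysomal changes at 2 h were -0.76, -0.29 and -0.75 in replicates 1, 2 and 3, so replicate 2 was again the smallest. Taken on the deposited scale, 268 members were lower on polysomes at 2 h, where the median of all probe sets was itself -0.85. AT1G23030 had polysomal levels of -0.86, -0.11 and -0.73 at 2 h of hypoxia against 1.58, 1.91 and 1.8 in 2 h of air, with no overlap, a fall of 2.33 ± 0.2 (limma adjusted p = 1.74e-09), beside 1.88 in total RNA. AT3G06070 fell by 2.13, AT1G04000 by 2.00, AT3G24080 by 1.97, bZIP44 by 1.94 and AT5G24570 by 1.72 on polysomes.

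The difference between the polysomal and the total change at 2 h, called polysome association here, passed the test for 68 members. It was higher for 57 and lower for 11, where 7.38% and 7.62% of all probe sets were called higher and lower, and on the deposited scale the direction turned, with 3 higher and 139 lower. Its median was 0.25, and 0.36 over the non-rebounding probe sets. The count also depended on single replicate numbers, with 32 members without replicate 1 and 17 without replicate 3. For the 57, total RNA was called lower in 54 and polysomal RNA in 4, from the same arrays that enter the difference. AT2G34300 gave total RNA signals of 7, 7.29 and 6.69 at 2 h of hypoxia against 8.41, 8.31 and 8.44 in 2 h of air, and polysomal levels of 0.89, 0.96 and 0.85 against 0.98, 0.79 and 0.91. Its total RNA fell by 1.39 while its polysomal groups overlapped, and the association difference was 1.39 ± 0.228 (limma adjusted p = 0.000176). TOPII had 1.2, AT1G62020 1.02, AT4G39840 1.00 and GMII 1.00 for the same difference, and GMII had 0.93 without replicate 1 (limma adjusted p = 0.0803). On the deposited scale, where the median of all probe sets was -0.82, AT2G34300 had 0.57 (limma adjusted p = 0.0255). TOPII had 0.38 there (limma adjusted p = 0.136), AT1G62020 0.2 (limma adjusted p = 0.371), AT4G39840 0.19 (limma adjusted p = 0.377) and GMII 0.18 (limma adjusted p = 0.451).

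All 11 members with the lower association at 2 h were lower on polysomes at both 2 h and 9 h and higher in recovery. The 2 h polysomal arrays enter the association difference, so the 2 h calls are no separate support. Of all 273 members, 243 were lower on polysomes at 9 h and 221 higher in recovery. The named ones were bZIP44, BZIP53, AT1G04000, AT3G21650 and AT1G79660. The first 2 are transcription factors of the S1 group of bZIP proteins, several of which are known for control of their translation by sucrose through small upstream reading frames. The polysomal level of bZIP44 was 0.81, 1.65 and 0.46 at 2 h of hypoxia against 2.89, 2.71 and 3.13 in 2 h of air, with no overlap, while its total RNA, 6.34, 7.6 and 6.8 against 7.43, 7.48 and 7.64, overlapped. On polysomes bZIP44 fell by 1.94 ± 0.273 (limma adjusted p = 3.41e-06), and the association difference was -1.34 ± 0.386 (limma adjusted p = 0.0182), with -1.08 (limma adjusted p = 0.292) without replicate 3. BZIP53, also on the list of dark and sugar starvation genes, had 3, 3.06 and 2.5 at 2 h of hypoxia against 4.12, 3.93 and 4.11 in 2 h of air on polysomes, a change of -1.2 ± 0.175 (limma adjusted p = 5.35e-06). Its association difference of -0.76 (limma adjusted p = 0.0387) became -0.49 without replicate 3 (limma adjusted p = 0.379). Without that replicate the differences of AT1G04000, AT3G21650 and AT1G79660 also missed the threshold, with limma adjusted p of 0.357, 0.166 and 0.0623. On the deposited scale the association differences of bZIP44, BZIP53, AT1G04000, AT3G21650 and AT1G79660 were -2.16, -1.57, -1.78, -1.6 and -1.68. At 9 h, bZIP44 and BZIP53 fell on polysomes by 2.44 and 1.62, and in recovery they rose by 1.97 and 1.70, while their total RNA moved by -1.17 and -1.14 at 9 h and by 1.11 and 1.12 in recovery.

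**Figure D5:**
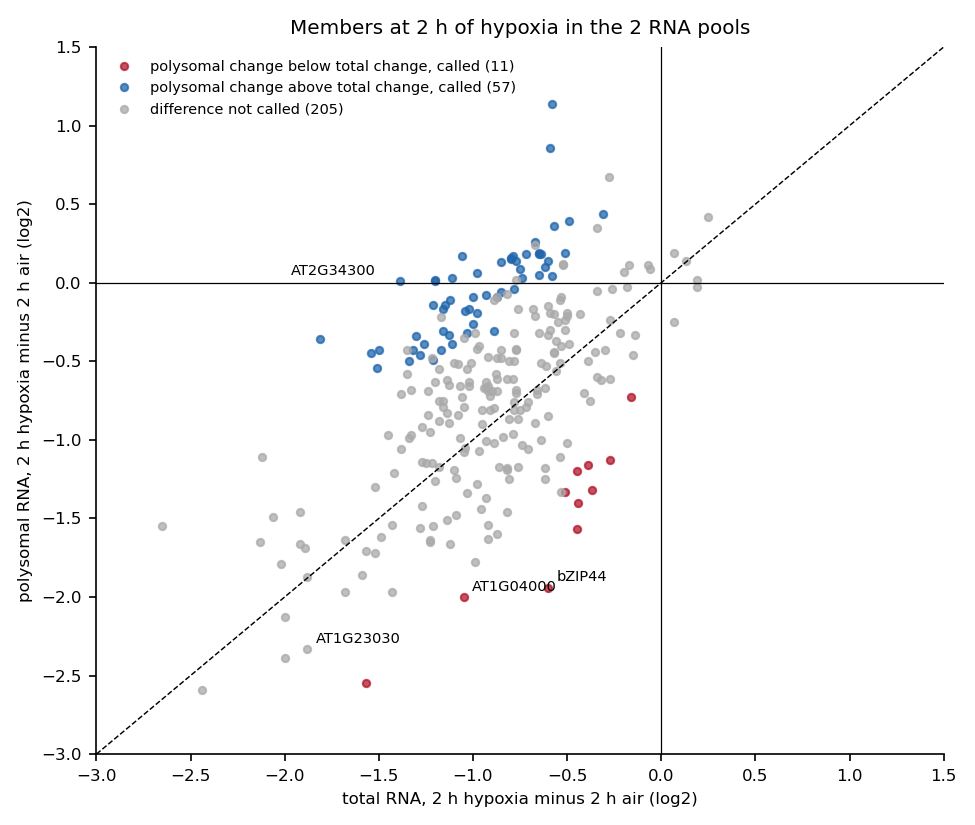
Change at 2 h of hypoxia against 2 h of air in total RNA (horizontal, log2) and in polysomal RNA (vertical, log2) for the 273 members, coloured by the limma call of the difference between the pools; the dashed line marks equal change. The difference was higher for 57 members and lower for 11, bZIP44 and AT1G04000 among the 11, on values relative to the array mean; on the deposited scale it was higher for 3 and lower for 139.

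For a reader's view of function, 39 named members with a well known role were put into 7 groups after their values had been seen. The groups are therefore described and not tested as groups. Of all members, 82.4% were lower in total RNA at 2 h, 58.6% and 89% lower on polysomes at 2 h and 9 h, and 81% higher there in recovery. Over all probe sets these shares were 12.5%, 17.6%, 25.3% and 18.9%. Group counts near the members' shares restate membership and show nothing particular to a group. The receptor and kinase group held 6. FER, the FERONIA kinase that senses the cell wall and binds RALF peptides, had total RNA signals of 8.67, 8.81 and 8.22 at 2 h of hypoxia against 10.02, 9.64 and 9.86 in 2 h of air, a fall of 1.27 ± 0.205 (limma adjusted p = 5.05e-05). On polysomes it had 2.48, 2.71 and 2.88 in recovery, 1, 1.57 and 1.38 at 9 h of hypoxia and 2.98, 2.85 and 2.93 in 9 h of air. Hypoxia arrays were the lowest without overlap, with a fall of 1.61 ± 0.202 (limma adjusted p = 2.1e-07) and a rise of 1.38 ± 0.202 in recovery (limma adjusted p = 3.84e-06). THE1, the related THESEUS1 kinase of wall integrity, fell by 0.8 on polysomes at 9 h and rose by 1.4 in recovery. All 6 were lower in total RNA at 2 h, 5 were lower on polysomes at 9 h and 5 rose in recovery, with a group median of 0.92. The 2 h calls of THE1 without replicate 1 (-0.64, limma adjusted p = 0.0747), of AT2G35050 without replicate 3 (-0.74, limma adjusted p = 0.0597) and of PSY1R without the third 2 h hypoxia array (-0.41, limma adjusted p = 0.186) were lost.

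Enzymes and proteins of walls and glycans made up a group of 6, and all 6 were lower in total RNA at 2 h and on polysomes at 9 h, with 5 higher on polysomes in recovery. They were CSLC04, EXLA2, AT3G49220, GMII, AT3G01720 and AT3G54400, the last of the aspartic protease family. The recovery call of AT3G54400, 1 of the 5, ended without the second recovery array (0.36, limma adjusted p = 0.204). CSLC04, which makes the glucan backbone of xyloglucan, had polysomal levels of 1.58, 1.83 and 1.86 in recovery, 0.11, 0.41 and 0.71 at 9 h of hypoxia and 2.11, 2.02 and 1.98 in 9 h of air. It fell by 1.62 ± 0.205 at 9 h (limma adjusted p = 2.21e-07) and rose by 1.35 ± 0.205 in recovery (limma adjusted p = 6.42e-06). Its call in total RNA at 2 h, -0.87, ended without replicate 1 (-0.6, limma adjusted p = 0.169). EXLA2, an expansin-like protein, had 0.2, 0.68 and 0.59 in recovery, -1.08, -0.83 and -0.85 at 9 h of hypoxia and 0.06, 0.27 and 0.39 in 9 h of air. Its fall was 1.16 ± 0.187 (limma adjusted p = 8.85e-06) and its rise 1.41 ± 0.187 (limma adjusted p = 8.24e-07). AT3G49220 rose by 0.49 in recovery, which became 0.29 without the third 9 h hypoxia array (limma adjusted p = 0.0979).

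Translation was represented by 4 members: AT1G76810, of the initiation factor 5B type that joins the ribosomal subunits, AT1G77840, an initiation factor 5, AT4G11160, an initiation factor of the bacterial type, and AT1G09620, a leucyl-tRNA synthetase. All 4 were lower in total RNA at 2 h and on polysomes at 9 h, and 3 rose on polysomes in recovery. AT1G76810 had polysomal levels of 0.83, 0.98 and 1.38 in recovery, -0.42, -0.83 and 0.12 at 9 h of hypoxia and 1.21, 0.76 and 1.18 in 9 h of air, a fall of 1.43 ± 0.219 (limma adjusted p = 4.46e-06) and a rise of 1.44 ± 0.219 (limma adjusted p = 6.25e-06). AT1G09620 rose least, by 0.32, and did not pass (limma adjusted p = 0.0701). The 2 h call of AT1G77840, -0.78, was -0.59 without replicate 3 (limma adjusted p = 0.132).

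Membrane traffic held 3 members, AT3G60860 and both coatomer alpha subunits, AT1G62020 and AT2G21390, whose products line the COPI vesicles of the Golgi. In total RNA at 2 h of hypoxia, AT2G21390 had 8.52, 8.72 and 8.21 against 9.7, 9.67 and 9.94 in 2 h of air, and AT1G62020 had 8.04, 8.26 and 7.69 against 9.09, 8.81 and 9.02. Both fell without overlap, by 1.28 ± 0.116 (limma adjusted p = 6.09e-09) and 0.98 ± 0.151 (limma adjusted p = 2.93e-05). On polysomes at 9 h AT2G21390 fell by 1.08 and AT1G62020 had -0.16 (limma adjusted p = 0.38). In recovery AT2G21390 rose by 0.79 and AT1G62020 had -0.16 (limma adjusted p = 0.445). The 2 genes are close paralogs, and how far their probes are shared was not tested.

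The 8 members of gene expression were bZIP44, BZIP53, the ERF type factor AT1G64380, the RNA polymerase II subunit NRPB7, STIPL1, TOPII, AT3G24080 and the RNA helicase AT1G48650. Of these, 4 were lower in total RNA at 2 h, 6 were lower on polysomes at 9 h and 6 rose on polysomes in recovery. NRPB7 had total RNA signals of 6.22, 6.92 and 6.45 at 2 h of hypoxia against 6.61, 6.51 and 6.98 in 2 h of air, which overlapped, with a change of -0.18 (limma adjusted p = 0.637). On polysomes at 9 h it had -0.46, -0.03 and 0 under hypoxia against 1.26, 1.38 and 1.47 in air, a fall of 1.53 ± 0.186 (limma adjusted p = 1.2e-07). The difference between its 9 h and 2 h polysomal changes was -1.5 ± 0.263 (limma adjusted p = 0.00016).

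Protein turnover and phosphatases gave 5 members: AT1G23030, the F-box protein HWS, the protein phosphatase 2A regulatory subunits AT5G25510 and AT3G21650, and the protein phosphatase 2C AT3G02750. All 5 were lower on polysomes at both times and higher in recovery. AT3G21650 had polysomal levels of 1.73, 1.2 and 1.39 in recovery, -0.58, -0.65 and -0.59 at 9 h of hypoxia and 1.52, 1.11 and 1.3 in 9 h of air, a fall of 1.92 ± 0.154 (limma adjusted p = 9.78e-11) and a rise of 2.05 ± 0.154 (limma adjusted p = 1.05e-10). Its total RNA change at 2 h was -0.39 and did not pass (limma adjusted p = 0.0726). Calls that a left-out replicate experiment ended were those of HWS, -0.5 (limma adjusted p = 0.103), and AT3G02750, -0.72 (limma adjusted p = 0.0802), on polysomes at 2 h without replicate 1, and the recovery rise of AT5G25510, 0.43 (limma adjusted p = 0.0911) without replicate 1.

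The 7 members of specialised metabolism were the glycosyltransferases GT72B1, UGT74B1, which serves glucosinolate synthesis, and AT1G06000, the dioxygenase family member AOP1, the copper amine oxidase AT2G42490, AT5G15950, and AT3G49210 of the wax ester synthase family. In total RNA at 2 h 4 were lower, on polysomes at 9 h 4 were lower and 5 rose in recovery, with median polysomal changes of -0.4 and 0.71. UGT74B1 did not pass in either pool at 2 h, nor on polysomes at 9 h or in recovery against 9 h of hypoxia. Its polysomal levels were 2.08, 1.85 and 1.51 in recovery against 1.66, 1.52 and 0.73 at 9 h of hypoxia, a difference of 0.51 (limma adjusted p = 0.0523). Its association difference at 2 h, 0.87, did pass (limma adjusted p = 0.0421), but was 0.78 without replicate 1 (limma adjusted p = 0.239). AT5G15950 had total RNA signals of 5.93, 5.65 and 5.64 at 2 h of hypoxia against 6, 6.1 and 6.2 in 2 h of air, a difference of -0.35 that did not pass (limma adjusted p = 0.17), and it fell by 1.70 on polysomes at 9 h. AT3G49210, the one member whose next protein-coding gene on the chromosome, AT3G49220, was also a named member, fell by 0.4 on polysomes at 9 h, or 0.3 without replicate 2 (-0.3, limma adjusted p = 0.22).

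A direct comparison of the 2 times on polysomes was added after the data had been seen. The polysomal change at 9 h was below that at 2 h in 102 members, above it in 0, and the other 171 did not pass, where 11.6% of all probe sets were called lower and 9.14% higher. The median difference was -0.54, and among non-rebounding probe sets 1024 of 1663 were lower with a median of -0.81. Of the 375 that rose in recovery without the 9 h fall, 18 were lower and 76 higher. The rule asked for a fall in total RNA at 9 h and not at 2 h. Total and polysomal changes at 9 h had a Pearson r of 0.79 over all probe sets. The choice of members thus favoured a lower polysomal change at 9 h. The count was 66 without replicate 1 and 64 without replicate 3. AT3G54400 had polysomal levels of 3.55, 4.18 and 3.57 at 2 h of hypoxia against 4.15, 4.27 and 4.05 in 2 h of air, which overlapped, and 0.22, 0.58 and 0.55 at 9 h of hypoxia against 3.34, 3.48 and 3.48 in 9 h of air. Its difference between the times was -2.59 ± 0.29 (limma adjusted p = 5.7e-07), the largest among named members, followed by AT2G44670 with -2.07, AT5G12050 with -1.82, AT5G08350 with -1.8 and AT4G29520 with -1.61. AT2G44670 fell by 0.5 at 2 h on polysomes (limma adjusted p = 0.035), a call that ended without the first 2 h air array (-0.38, limma adjusted p = 0.174).

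The members were set beside 14 lists of growth, light and starvation genes written from general knowledge, of which 40 genes of 268 could be named on the array. Of the 40, 3 were members, against 110 of all 13513 probe sets with 1 gene. They were EXLA2 among expansins, BZIP53 among dark and sugar starvation genes and UGT74B1 among glucosinolate genes. Of 11 named expansins, which loosen walls, 7 were lower in total RNA at 2 h and 6 were lower and 1 higher on polysomes at 9 h, while in recovery 2 rose and 3 fell there. EXPA4, an alpha-expansin that was no member, fell by 3.29 on polysomes at 9 h and had 0.39 in recovery (limma adjusted p = 0.283), against a fall of 1.16 and a rise of 1.41 for EXLA2. EXLA1, also no member, rose both at 9 h, by 1.65, and in recovery, by 2.07, on polysomes. On polysomes in recovery, 3 of 7 xyloglucan endotransglucosylases fell and 0 rose, 1 of 7 auxin response genes rose and 1 fell, and all 3 gibberellin receptors named, GID1A, GID1B and GID1C, fell by 1.60, 0.98 and 0.81. Of 3 light harvesting genes 2 rose and 1 fell, of 3 clock genes 0 rose and 1 fell, and of the 2 root hair expansins EXPA7 and EXPA18 neither passed, at -0.17 and -0.3. The sugar starvation gene AKINBETA1, the glucosinolate gene BCAT4 and the iron regulator PYE fell by 0.86, 1.18 and 1.66, and the flavonoid gene DFR had -0.32 (limma adjusted p = 0.418).

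Members without a gene name had medians close to those of the named ones. The 110 named members had median changes of -0.89 in total RNA at 2 h, -1.15 on polysomes at 9 h and 0.98 on polysomes in recovery, and the 163 others -0.87, -1.24 and 0.94. The named members lie on all 5 chromosomes, with 26, 16, 25, 13 and 30 on chromosomes 1 to 5.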

How the data were processed

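The values are log2 signals of 30 Affymetrix arrays (biotin-labelled polyA RNA, 3 µg, 3 per group) that the authors deposited after RMA, per the submitters' processing notes; no version is named, nor which arrays were normalized as 1 set. The 64 control probe sets among 22810 were dropped, and the remaining 22746 were tested with no filter. Over all probe sets, 13513 had 1 gene, 503 several and 8730 none in the probe table.

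Polysomal values and both comparisons built on them were computed from mean-centred arrays, a choice made knowing that the deposited polysomal means differ; total values were used as deposited. One limma model (version 3.58.1, R 4.3.3) held 10 group means, with 20 residual degrees of freedom, moderated tests and Benjamini-Hochberg adjustment over all probe sets at 0.05. It was tested on simulated data with known changes. Arrays give no read depth, and 3 per group limit the precision.

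Members and gene lists were chosen with earlier results of these data known. The 14 lists were auxin response, SAUR, expansin, xyloglucan endotransglucosylase, dark and sugar starvation, clock, gibberellin and brassinosteroid, aquaporin, light harvesting, sterol and fatty acid, flavonoid, glucosinolate, nitrate and iron, and root hair genes; SAUR, aquaporin and sterol and fatty acid genes had no named probe set.

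Named by rule, from probe sets with 1 gene, were the 10 largest falls and rises, the 6 largest passing changes without group overlap per comparison (overlap was not applied to differences of changes), members in a list, up to 4 passing list genes, 3 genes on each side of a threshold, and up to 6 at each extreme. Genes given for their function were chosen after their values were seen.

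Replicate numbers were checked for pairing by correlating, for arrays with the same number, what each gene's signal differed by from its group mean; the labels state no such pairing. All pairs exceeded 0.1 for hypoxia at 2 h in total RNA (0.13 to 0.47), and on polysomes for hypoxia at 9 h (0.106 to 0.18), recovery against 9 h of hypoxia (0.237 to 0.269) and the air controls (0.111 to 0.302). Alternatives were a replicate block, other scales, a filter on the dimmest 40%, 1 pool per model, other thresholds of the rule, and leaving out replicates or arrays. Probe-level signals were not used here.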

Additional observations from a re-analysis of the deposited data

Results flagged for a closer look

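Members whose polysomal change differed between 9 h and 2 h of hypoxia by a test of the difference numbered 102, all lower at 9 h. The rule asked for a fall in total RNA at 9 h, which favoured this direction. The largest named differences were those of AT3G54400 (-2.59), AT2G44670 (-2.07) and AT5G12050 (-1.82). Members whose polysomal and total changes at 2 h differed by a test of the difference numbered 68, led among named members by AT2G34300 (1.39), bZIP44 (-1.34) and TOPII (1.2). The 102 became 66 without replicate 1 and 64 without replicate 3, and the 68 became 32 and 17. On the deposited scale the second set turned to 3 higher and 139 lower. There TOPII had 0.38 and missed the threshold (limma adjusted p = 0.136), and bZIP44 missed it without replicate 3 (-1.08, limma adjusted p = 0.292). The replicate 2 arrays at 2 h of hypoxia showed the smallest median change of the members in both pools (-0.6 in total RNA and -0.29 on polysomes). What set these arrays apart was not tested.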

How the results depend on the processing

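On the deposited polysomal scale, 268 members were lower on polysomes at 2 h and 142 changed in association, 139 of them lower; the median of all polysomal changes there was -0.85 at 2 h, -0.97 at 9 h and 0.81 in recovery. Association reversed on that scale for THE1 (-0.13, against 0.68), AOP1 (-0.09, against 0.72), AT2G21390 (-0.01, against 0.81) and AT1G09620 (-0.04, against 0.78), and none passed there. With array medians subtracted the rule found 178 members, and with a threshold of 1.5 it found 59; median subtraction gave all probe sets a median change of 0.15 on polysomes at 9 h, against 0.05. Leaving out replicates or arrays gave 80 to 120 members changed in recovery against air, 17 to 78 in association, 17 to 26 between the air controls and 64 to 115 between the 9 h and 2 h changes. The replicate block gave 235 members lower in total RNA at 2 h, 172 and 247 lower on polysomes at 2 h and 9 h, 224 higher in recovery and 120 between times. It changed none of the 216 calls of named genes, but leaving out a replicate or an array ended 50 of them. Counts for the other comparisons stayed within 1.5 times. The causes of these moves were not tested.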
